A study of Equus caballus with 4 samples.

Results

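Transcripts of chemokines, interleukins and their receptors were examined in differentiating equine satellite cells (ESC) with and without HMB (*β*-hydroxy-*β*-methylbutyrate, which the body makes from leucine). Members were the non-control array probes whose gene name was CCL, CXCL, CCR or CXCR followed by a number, or IL followed by a number with or without further letters and digits. Names beginning with ILF were left out, and names spelled with a hyphen were outside this rule. It gave 276 of 43603 probes, which stood for 109 of the 24998 genes or transcripts named on the array.

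The ESC came from the semitendinosus muscle of 6-month-old colts, and a preplating step had been used to lower the number of fibroblasts. Treated cells received HMB for 24 h after day 2 of differentiation, and control cells stayed in differentiation medium without it. RNA of HMB-treated cells (Cy5) and of control cells (Cy3) was hybridised together on each of 4 arrays of 1 slide. The dyes were never swapped, so the dye bias of a probe is part of its ratio and cannot be told apart from the treatment. The dose was 50 µM according to the methods and 50 µg according to the labels. Titles and source names of all arrays gave the treatment as HMB, whereas a description field called the cells GO-treated, and the titles were followed. The arrays were labelled as biological replicates, but which colts stood behind each array was not given in the sources used here. P-values therefore measure the spread between these 4 arrays.

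Chemokines are small secreted proteins that guide the migration of cells through G protein-coupled receptors, and their CC and CXC families are named after the spacing of conserved cysteines. Interleukins act through multi-chain receptors that signal mainly through Janus kinases and STAT factors or, in the interleukin 1 family, through MYD88. In muscle, such factors are released by immune cells as well as by muscle precursor cells during repair, and some of them act on myoblast migration, fusion and growth.

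Tested probes were those that the scanner software had marked as well above background on each of the 4 arrays in 1 and the same channel. The brightest tested probe, by mean intensity, stood for its gene. Values are log2 ratios of HMB-treated over control cells, so negative values mean less RNA in HMB-treated cells, and the threshold was an adjusted P of 0.05 in limma over all 27383 tested probes. Of the 109 members, 46 were tested. In HMB-treated cells 6 members were higher and 10 were lower, and 30 did not pass the threshold. Of the called members, *CCL20*, *CCL3*, *CXCL9* and *IL33* (lower) were admitted by the control channel alone and *IL1R1* (higher) by the HMB channel alone. The filter thus favoured the direction of these 5. With both channels required on every array, 37 members were tested and 13 were called, 6 higher and 7 lower. These were the other 11 called members with *IL15* (higher) and *IL1RAP* (lower). Of all probes tested under this requirement, 22.1% were called. The 16 called members were 34.8% of those tested, beside 22.4% of all 15614 tested genes (22.8% of all tested probes). In each direction, 10.9% of all tested genes were higher and 11.6% were lower. The median ratio of the tested members was 0.01, beside 0.02 for all tested genes. The median size of the ratio, regardless of sign, was 0.31 in the members and 0.15 in all tested genes. Members admitted by 1 channel alone are included in it. In bulk RNA, fewer cells of a type and less RNA per cell cannot be told apart.

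The remaining 63 members were not tested, 26 of them well above background on some arrays in a channel and 37 on no array. Of 60 ligands 28 were tested and 13 were called, which is 46.4% beside 22.4% of all tested genes. These were 4 higher and 9 lower ligands, and 4 of the lower ones were admitted by the control channel alone. Of 43 receptor genes 17 were tested and 3 were called, which is 17.6% beside the same 22.4%. Here 2 were higher, of which 1 was admitted by the HMB channel alone, and 1 was lower. Whether these shares differ was not tested. For 37 tested members both channels of the probe carried this mark on every array, for 6 only the control channel did, and for 3 only the HMB channel.

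**Figure D1:**
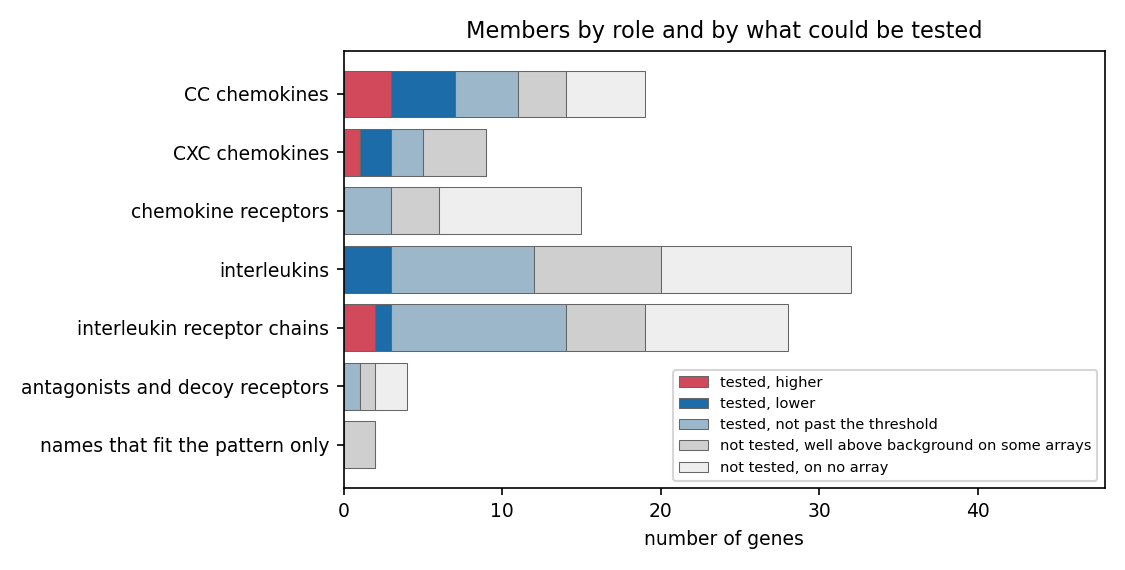
Number of member genes in each role (horizontal axis), split by whether they were higher, lower or not past the threshold in HMB-treated cells, or not tested. Of 11 tested CC chemokines 7 were called, and of 3 tested chemokine receptors 0, beside 22.4% of all tested genes.

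*CXCL9* and *CXCL10*, ligands of the receptor CXCR3 that are induced by interferon gamma, had lower RNA in HMB-treated cells on every array. Their probes are shown because they carry the lowest ratios among the tested CXC chemokines, each taken by its brightest tested probe. In the EquCab1 build *CXCL10* lies at chr3:39252082-39252141 and *CXCL9* close by at chr3:39227447-39227506, both on the minus strand. Whether a probe lies in a coding or untranslated part of its transcript was not determined here, for these and all probes below.
CXCL10: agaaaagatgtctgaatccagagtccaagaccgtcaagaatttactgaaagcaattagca
CXCL9: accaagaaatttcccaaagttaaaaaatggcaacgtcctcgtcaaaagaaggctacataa

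Ratios of *CXCL10* on arrays 1 to 4 were -1.40, -1.14, -1.71 and -1.82. All arrays were low, array 4 most of all. The mean was -1.52 ± 0.31 (SD, n = 4), which is 34.9% of the control level (adjusted P = 0.00138). The processed signal of this probe was 94.5 to 199 array units in control cells and 26.8 to 60.7 in HMB-treated cells, so the ranges did not overlap. All 5 *CXCL10* probes, which overlap in sequence, were called, with means from -1.66 to -1.38. Ratios of *CXCL9* were -2.13, -1.24, -1.18 and -1.61. Array 1 was the lowest, and the other arrays were low as well. The mean was -1.54 ± 0.44 (SD, n = 4; adjusted P = 0.00298). Its HMB channel was well above background on 3 of the 4 arrays. *CXCL11*, the neighbouring ligand of the same receptor, was well above background on 2 arrays in control cells and on none in HMB-treated cells, and was not tested. Both calls were kept without any single array. With the normexp background correction and loess the values were -0.96 for *CXCL10* and -0.69 for *CXCL9*, and both remained called.

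*CXCL16*, a membrane-anchored chemokine that is also a scavenger receptor, was higher in HMB-treated cells. The 4 ratios were 0.29, 0.38, 0.05 and 0.43. Array 3 was close to 0 and the others were higher. The mean was 0.29 ± 0.17 (SD, n = 4; adjusted P = 0.0494), and 4 of its 5 probes were called, with means of all 5 from 0.27 to 0.33. This call was lost without any 1 of the arrays, with adjusted P of 0.102, 0.190, 0.0527 and 0.113 without arrays 1, 2, 3 and 4. Its mean was 0.28 with normexp and loess and 0.54 with normexp and median centring, both called.

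The ligands of CXCR2 that attract neutrophils were not called. *CXCL1* had a mean of 0.92 ± 1.01 (SD, n = 4; adjusted P = 0.106), with ratios of 0.02, 0.85, 0.46 and 2.34. Array 4 stood far above the others and raised the mean. *CXCL6* had a mean of 0.38 (adjusted P = 0.197), and it was called at 0.62 without array 3 (adjusted P = 0.0272). *IL8*, the ligand now named *CXCL8*, was well above background on at most 3 arrays in control cells and 2 in HMB-treated cells and was not tested. *CXCL12*, the ligand of CXCR4 that guides muscle precursor cells, and *CXCL13*, which attracts B cells, were not tested either. They were well above background on at most 2 arrays in a channel.

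**Figure D2:**
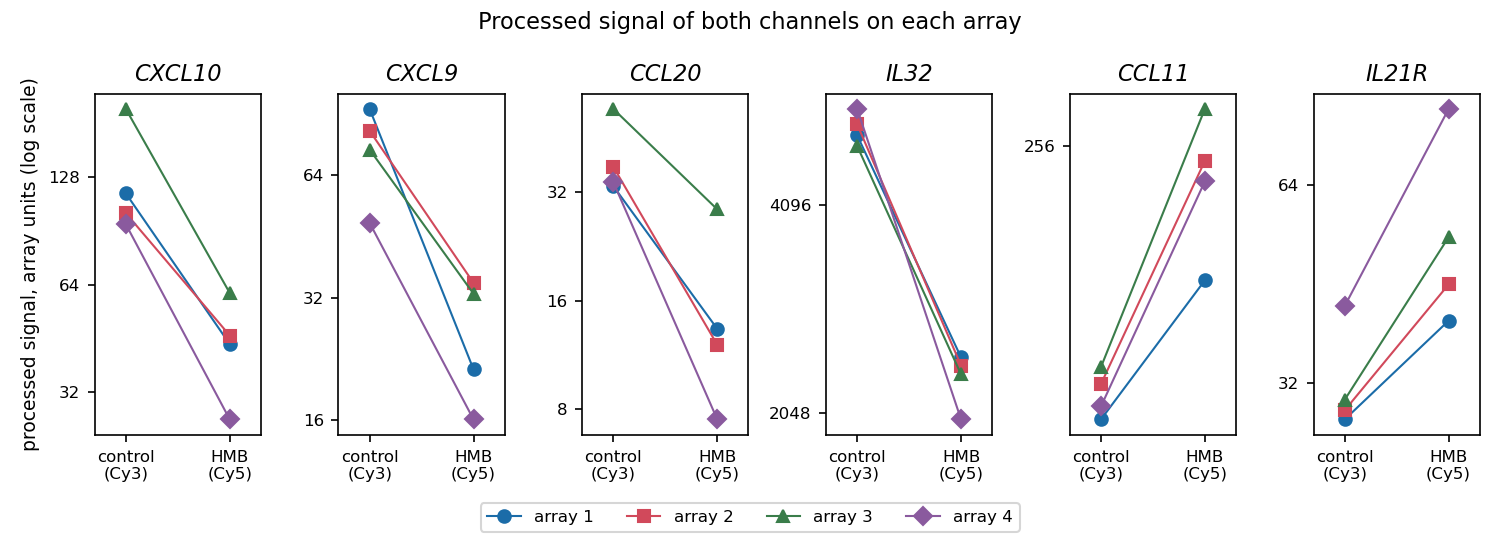
Processed signal in array units (log scale) of the control channel (Cy3) and the HMB channel (Cy5) for 6 called members, with 1 line for each of the 4 arrays. On every array the line fell for *CXCL10*, *CXCL9*, *CCL20* and *IL32* and rose for *CCL11* and *IL21R*.

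Among CC chemokines 11 of 19 genes were tested, 3 were higher and 4 were lower. This is 63.6% called, beside 22.4% of all tested genes. The methods' t-test (an ordinary one-sample test, described below) called 0 of the 11, beside 2.8% of all tested probes. Without pairing of the channels within arrays 4 were called, beside 8.86% of all tested probes. With no filter 2 of the 19 were called, beside 8.46% of all probes. The lowest mean among the tested genes was that of *CCL20*, the ligand of CCR6 that attracts dendritic cells and some lymphocytes. *CCL17* is a ligand of CCR4. Their probes are shown as the pair of lowest ratios among the tested genes of this family, at chr6:15925169-15925228 and chr3:9586315-9586374, both on the plus strand.
CCL20: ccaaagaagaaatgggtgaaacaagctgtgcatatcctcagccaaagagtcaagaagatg
CCL17: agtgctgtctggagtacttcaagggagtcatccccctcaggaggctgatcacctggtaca

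Ratios of *CCL20* were -1.31, -1.64, -0.92 and -2.18. Array 4 was the lowest and array 3 the least low. The mean was -1.52 ± 0.53 (SD, n = 4; adjusted P = 0.00491). Signals were small in both channels, with 33.2, 37.6, 54.4 and 34.0 array units in control cells and 13.4, 12.1, 28.7 and 7.49 in HMB-treated cells. In HMB-treated cells only array 3 was well above background, and by the processed signals this probe was at least 2.1-fold lower. All 5 probes were called, with means from -1.74 to -1.52. The HMB channel of the other 4 was well above background on no array, and by the processed signals they were at least 2.15-fold to 2.29-fold lower. Such a bound sets the brighter channel against the higher of a dim probe's own signal and the lowest signal marked well above background. It is open to dye bias and holds for these signals alone. The call was kept without any single array. With normexp and loess the mean of the brightest probe was -0.49, a smaller ratio still past the threshold.

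Ratios of *CCL17* were -0.37, -0.53, -0.73 and -0.42. All arrays were low, array 3 most of all. The mean was -0.51 ± 0.16 (SD, n = 4; adjusted P = 0.0085), a call that was kept without any single array. Normexp gave called means of -0.43 with loess and -0.28 with median centring. *CCL22*, the other ligand of CCR4, had a mean of 0.13 (adjusted P = 0.359).

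*CCL3*, a macrophage inflammatory protein, had ratios of -0.14, -0.55, -0.64 and -0.48. Array 1 was the least low. The mean was -0.45 ± 0.22 (SD, n = 4; adjusted P = 0.0204), with the HMB channel well above background on 3 arrays. Without array 2 the adjusted P was 0.0841, without array 3 it was 0.0824 and without array 4 it was 0.0527. With normexp and loess the mean of *CCL3* was -0.17 and with normexp and median centring -0.26, and neither was called.

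*CCL19*, a ligand of CCR7 that directs cells to lymph nodes, had ratios of -0.37, -0.17, -0.33 and -0.45. Array 2 was the least low. The mean was -0.33 ± 0.12 (SD, n = 4; adjusted P = 0.0214). Its other probe, at another site, had a mean of -0.10 and was not called (adjusted P = 0.490). The call of *CCL19* was lost without array 1 (adjusted P = 0.0562), array 2 (0.0518) or array 3 (0.0859). It was lost as well with the mean of both probes (-0.21) and with normexp and median centring (-0.19), but not with normexp and loess (-0.26).

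The CC chemokines higher in HMB-treated cells were neighbours. *CCL13*, *CCL8*, *CCL11* and *CCL2* are eosinophil and monocyte attractants of the monocyte chemoattractant and eotaxin group. Their probes lie within chr11:37266075-37348621, apart from some probes of *CCL2* just beyond. All 4 were tested, all had positive means, and 3 were called, beside 22.4% of all tested genes. The probes below are shown because *CCL13* was measured at separate sites with unequal ratios and since the probes of *CCL8* and *CCL2* have 21 bases in common, given in capitals. No other pair of tested genes in the family shared more than 13 bases. The *CCL2* probe shown is a tested probe other than its brightest. The *CCL13* probes lie at chr11:37266075-37266134 and chr11:37266686-37266745, the *CCL8* probe within chr11:37276112-37276598 and the *CCL2* probe within chr11:37348878-37349314, all on the minus strand. Cross-hybridisation between *CCL8* and *CCL2* was not tested.
CCL13, first site: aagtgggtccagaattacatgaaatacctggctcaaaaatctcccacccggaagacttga
CCL13, second site: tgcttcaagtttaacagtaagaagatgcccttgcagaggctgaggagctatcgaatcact
CCL8: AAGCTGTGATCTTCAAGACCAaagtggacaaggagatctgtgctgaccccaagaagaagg
CCL2: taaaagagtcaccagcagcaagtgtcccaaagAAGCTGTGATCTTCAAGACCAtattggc

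Ratios of *CCL13*, a monocyte and eosinophil attractant, were 0.53, 0.52, 0.41 and 1.13 for its brightest probe. Array 4 stood above the others. The mean was 0.65 ± 0.33 (SD, n = 4; adjusted P = 0.0171). All 4 probes were called, with means of 0.58 and 0.65 at the first site and 1.24 and 1.60 at the second site. At the second site the control channel was well above background on 3 arrays for the former probe and 1 array for the latter. The mean over all probes was 1.02, and normexp with loess gave 0.38 for the brightest probe, both called.

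*CCL11*, an eosinophil attractant that acts through CCR3, had ratios of 0.35, 0.57, 0.66 and 0.57. All arrays were high, array 1 the least. The mean was 0.54 ± 0.13 (SD, n = 4; adjusted P = 0.00573). Signals were 158 to 173 array units in control cells and 202 to 274 in HMB-treated cells, without overlap. All 5 probes of *CCL11* were called, with means from 0.50 to 0.55, and the call was kept without any single array.

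*CCL8*, a monocyte attractant, had ratios of 0.87, 0.76, 0.07 and 0.48. Array 3 was close to 0. The mean was 0.55 ± 0.36 (SD, n = 4; adjusted P = 0.0332), and the other 2 probes were well above background on no array. Its call was lost without array 1 (adjusted P = 0.0915), array 2 (0.115) or array 4 (0.0721). *CCL2*, a monocyte attractant that muscle precursor cells also release, had a similar order of arrays with ratios of 0.84, 0.72, -0.10 and 0.35. Array 3 was again the lowest and here below 0. Its mean of 0.45 ± 0.42 (SD, n = 4) did not pass the threshold (adjusted P = 0.0835), and the 6 probes had means from 0.43 to 0.45. Without array 3 *CCL2* was called at 0.64 (adjusted P = 0.0324), and with normexp and median centring at 0.79 (adjusted P = 0.00531). With normexp and loess it was 0.41 and not called.

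The CC chemokines not called also included *CCL14*, an activator of monocytes, with a mean of -0.04, and *CCL26*, a further ligand of CCR3, with a mean of 0.15. The 10 probes of *CCL26* had means from 0.14 to 0.21, while its array 3 was low (-0.59) and its array 4 was the highest. In a channel, *CCL28* was well above background on at most 3 arrays, *CCL15* on 3 and *CCL25* on 1, and they were not tested. *CCL4*, *CCL5*, *CCL16*, *CCL21* and *CCL24* were well above background on no array and were not tested.

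**Figure D3:**
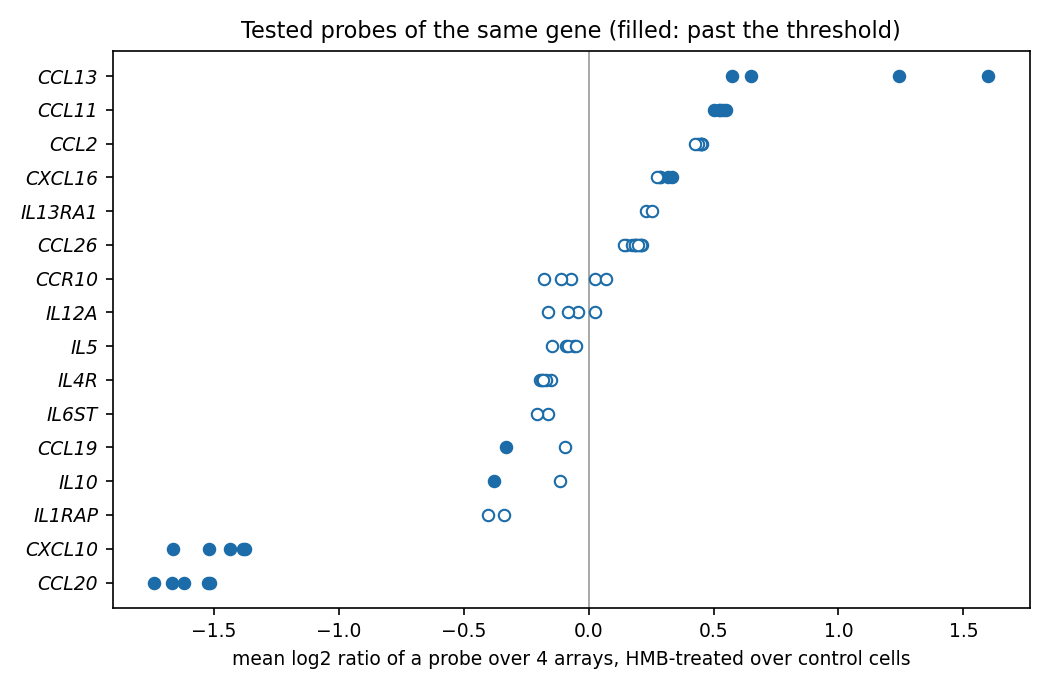
Mean log2 ratio (HMB-treated over control cells, 4 arrays) of each tested probe for the 16 tested members with several tested probes, with filled points for probes past the threshold. By these means *CCL13* had the widest range, from 0.58 to 1.60. The control channel of its probe at 1.60 was well above background on only 1 array, so that ratio is not exact. *CCL19* and *IL10* each had 1 called and 1 uncalled probe.

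Chemokine receptors were mostly below the range that could be measured. Of 15 genes 3 were tested, and limma called 0 of them, beside 22.4% of all tested genes. Unadjusted P was under 0.05 for 1. The methods' t-test gave 0 before and 0 after adjustment, where it called 2.8% of all tested probes. *CXCR7*, the scavenger receptor of CXCL12 now named *ACKR3*, had a mean of 0.51 (adjusted P = 0.0633), from -0.02 on array 2 to 0.92 on array 4, and it was called at 0.68 without array 2 (adjusted P = 0.0329). *CCR4* had a mean of 0.09 and *CCR10*, a receptor of epithelial chemokines, a mean of 0.03. *CXCR4*, the receptor of CXCL12, was well above background on at most 3 arrays in control cells and 2 in HMB-treated cells. *CXCR2* reached 3 arrays in control cells and 0 in HMB-treated cells, and *CCR7* reached 1 in each. None of these 3 genes was tested, but without array 4 *CXCR4* was called at -0.38 (adjusted P = 0.0322) and *CXCR2* at -0.53 (adjusted P = 0.0111). *CCR1*, *CCR2*, *CCR3*, *CCR6*, *CCR8*, *CCR9*, *CXCR3* and *CXCR6* were well above background on no array and were not tested.

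Among interleukins 12 of 32 genes were tested, 0 were higher and 3 were lower, which is 25.0% called beside 22.4% of all tested genes. Unadjusted P was under 0.05 for 5 of the 12, and the methods' t-test called 1, beside 2.8% of all tested probes. The median ratio was -0.11, and 9 of the 12 means were negative. Of these, *IL33*, *IL6* and *IL10* were admitted by the control channel alone, so the filter favoured a negative mean for them. *IL32*, an inflammatory cytokine outside the known interleukin families, had ratios of -1.06, -1.16, -1.09 and -1.49. The arrays lay close together, with array 4 the lowest. The mean was -1.20 ± 0.20 (SD, n = 4), which is 43.5% of the control level (adjusted P = 0.00116). Signals were 4975 to 5626 array units in control cells and 2007 to 2466 in HMB-treated cells, without overlap. *IL32* kept its call in all 14 alternative settings.

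*IL33* and *IL18* belong to the interleukin 1 family, IL33 as a nuclear alarmin and IL18 as an inducer of interferon gamma. The *IL33* probe is shown because its position, chr23:17759822-17761276 on the plus strand, is longer than the probe, so that it joins separate stretches of the genome.
IL33: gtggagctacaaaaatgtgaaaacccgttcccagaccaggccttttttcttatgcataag

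Ratios of *IL33* were -0.81, -0.77, -0.48 and -1.64. Array 4 was well below the others. The mean was -0.92 ± 0.50 (SD, n = 4; adjusted P = 0.0172). The HMB channel was well above background on 3 arrays. Without array 1 the adjusted P was 0.0518, and normexp with loess gave a called mean of -0.47. *IL18* had ratios of -0.64, -0.48, -0.65 and -0.43. All arrays were low and close together. The mean of *IL18* was -0.55 ± 0.11 (SD, n = 4; adjusted P = 0.00468), kept without any single array, and normexp gave called means of -0.57 with loess and -0.35 with median centring.

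Neither of the interleukins most studied as products of muscle was called. *IL6*, released by contracting muscle, had ratios of -0.50, -0.88, -0.05 and 0.01. Arrays 1 and 2 were low and the others near 0. The mean was -0.35 ± 0.42 (SD, n = 4; adjusted P = 0.143), and -0.18 without array 2. *IL15*, a growth factor of lymphocytes that muscle also makes, had ratios of 0.06, 0.43, 0.43 and 0.89. Array 1 was near 0 and array 4 the highest. The mean of 0.45 ± 0.34 (SD, n = 4) fell just outside the threshold (adjusted P = 0.0506). Without array 1 *IL15* was called at 0.58 (adjusted P = 0.035), and with normexp and loess at 0.32 (adjusted P = 0.0446). It was also called with the intensity trend (adjusted P = 0.0432) and with the stricter filter (adjusted P = 0.0474).

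The other tested interleukins were *IL23A*, a subunit of interleukin 23, with a mean of -0.15, *IL28B*, an interferon lambda, with -0.11, the eosinophil growth factor *IL5* with -0.06, the interleukin 12 subunit *IL12A* with -0.04, *IL16*, a ligand of CD4, with 0.14, and *IL34*, a ligand of the receptor CSF1R, with 0.26. None of these passed the threshold, although *IL34* was called at 0.38 without array 4 (adjusted P = 0.023). *IL10*, an anti-inflammatory cytokine, had a mean of -0.11 for its brightest probe (adjusted P = 0.659) and of -0.38 for its second tested probe (adjusted P = 0.0141).

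Among interleukins that were not tested, some reached the background threshold on 1 to 3 arrays in a channel: *IL1B*, *IL2*, *IL3*, *IL4*, *IL12B*, *IL17C*, *IL22* and *IL24*. On no array was this so for *IL1A*, *IL1F10*, *IL7*, *IL17A*, *IL17B*, *IL17F*, *IL20*, *IL21*, *IL27*, *IL36A*, *IL36G* and *IL37*. The 8 interleukin 1 family genes between chr15:12274006 and chr15:12625480, *IL1A*, *IL1B*, *IL37*, *IL36G*, *IL36A*, *IL36RN*, *IL1F10* and *IL1RN*, were all untested.

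Of 28 interleukin receptor chains 14 were tested, 2 were higher and 1 was lower, which is 21.4% called beside the same 22.4%, with a median ratio of 0.03. *IL1R1* encodes the signalling receptor of interleukin 1. Ratios were 1.09, 0.67, 0.38 and 1.09. All arrays were high, array 3 the least. The mean of *IL1R1* was 0.81 ± 0.35 (SD, n = 4; adjusted P = 0.0105). The control channel was well above background on 2 arrays. Its call was kept without any single array but lost with normexp, at 0.23 with loess and 0.15 with median centring. *IL1RAP*, the accessory chain of that receptor, had a mean of -0.34 (adjusted P = 0.0517), and its 2 tested probes had means of -0.40 and -0.34. With the stricter filter, which needs both channels well above background, *IL1RAP* was called (adjusted P = 0.0488).

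*IL21R*, the receptor chain for interleukin 21, was the other gene that rose. Its probe, within chr13:8096968-8098120 on the minus strand, is shown since it likewise joins separate genomic stretches.
IL21R: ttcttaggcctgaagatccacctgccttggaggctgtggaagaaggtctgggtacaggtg
The 4 ratios were 0.50, 0.64, 0.82 and 1.00. All arrays were high. The mean of *IL21R* was 0.74 ± 0.22 (SD, n = 4; adjusted P = 0.00493), a call kept without any single array. Signals were low, with 28.1, 29.0, 30.1 and 41.9 array units in control cells and 39.8, 45.2, 53.3 and 83.6 in HMB-treated cells. With normexp and loess the mean was 0.36 and called, and with normexp and median centring 0.31 and not called. *IL21*, its ligand, was not tested.

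*IL22RA1*, a receptor chain for interleukin 22 typical of epithelial cells, had ratios of -0.37, -0.38, -0.44 and -0.33. The arrays were nearly equal. The mean was -0.38 ± 0.05 (SD, n = 4; adjusted P = 0.0089). The call was lost without array 2 (adjusted P = 0.0535) and without array 3 (0.0506), and normexp with loess gave -0.23, still called.

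*IL4R*, the receptor chain through which interleukin 4 promotes fusion of myoblasts with myotubes, had ratios of -0.02, -0.29, -0.30 and 0.02. Arrays 2 and 3 were low and the others near 0. The mean was -0.15 ± 0.17 (SD, n = 4; adjusted P = 0.229), it was -0.10 without array 3, and it turned to 0.23 with normexp and median centring but was -0.22 with normexp and loess, all uncalled. *IL6ST*, the signalling chain shared by interleukin 6 type cytokines, had ratios of -0.26, -0.10, -0.04 and -0.26. All were below 0, arrays 2 and 3 the least. The mean of *IL6ST* was -0.16 ± 0.11 (SD, n = 4; adjusted P = 0.128). It was -0.17 with normexp and loess and -0.02 with normexp and median centring, both uncalled.

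The other tested receptor chains did not pass the threshold. In the interleukin 10 receptor, *IL10RB* had a mean of -0.21 and *IL10RA* of 0.10. In the interleukin 17 receptor group, the means were -0.04 for *IL17RD*, 0.07 for *IL17RA* and 0.18 for *IL17RC*. *IL15RA*, which presents interleukin 15, had a mean of -0.01, the interleukin 12 receptor chain *IL12RB2* of 0.08 and *IL13RA1*, a partner of IL4R, of 0.23. Chains that were well above background on 1 to 3 arrays in a channel and not tested were *IL17RB*, *IL1RL1*, *IL2RB*, *IL31RA* and *IL5RA*. Without array 4 *IL17RB* could be tested and was called at 0.64 (adjusted P = 0.0441). *IL7R*, *IL2RA*, *IL9R*, *IL17RE*, *IL18R1*, *IL18RAP*, *IL20RA*, *IL20RB* and *IL23R* were well above background on no array.

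Of the 4 antagonists and decoy receptors only *IL13RA2*, which binds interleukin 13, was tested. Its ratios ran from -0.16 on array 1 to 1.13 on array 4, and the mean was 0.67 ± 0.57 (SD, n = 4; adjusted P = 0.0609). It was called at 0.94 without array 1 (adjusted P = 0.0102) and at 0.67 with an intensity trend and a robust prior (adjusted P = 0.0476). In this role limma called 0, with 1 at an unadjusted P under 0.05, and the methods' t-test gave 0 of either kind. *IL1RN*, the interleukin 1 receptor antagonist, was well above background on 1 array in each channel, and *IL22RA2* and *IL36RN* were so on none. The names *IL4I1*, an amino acid oxidase, and *IL1RAPL2*, a receptor-like protein of neurons, fit the naming pattern only, and neither was tested.

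**Figure D4:**
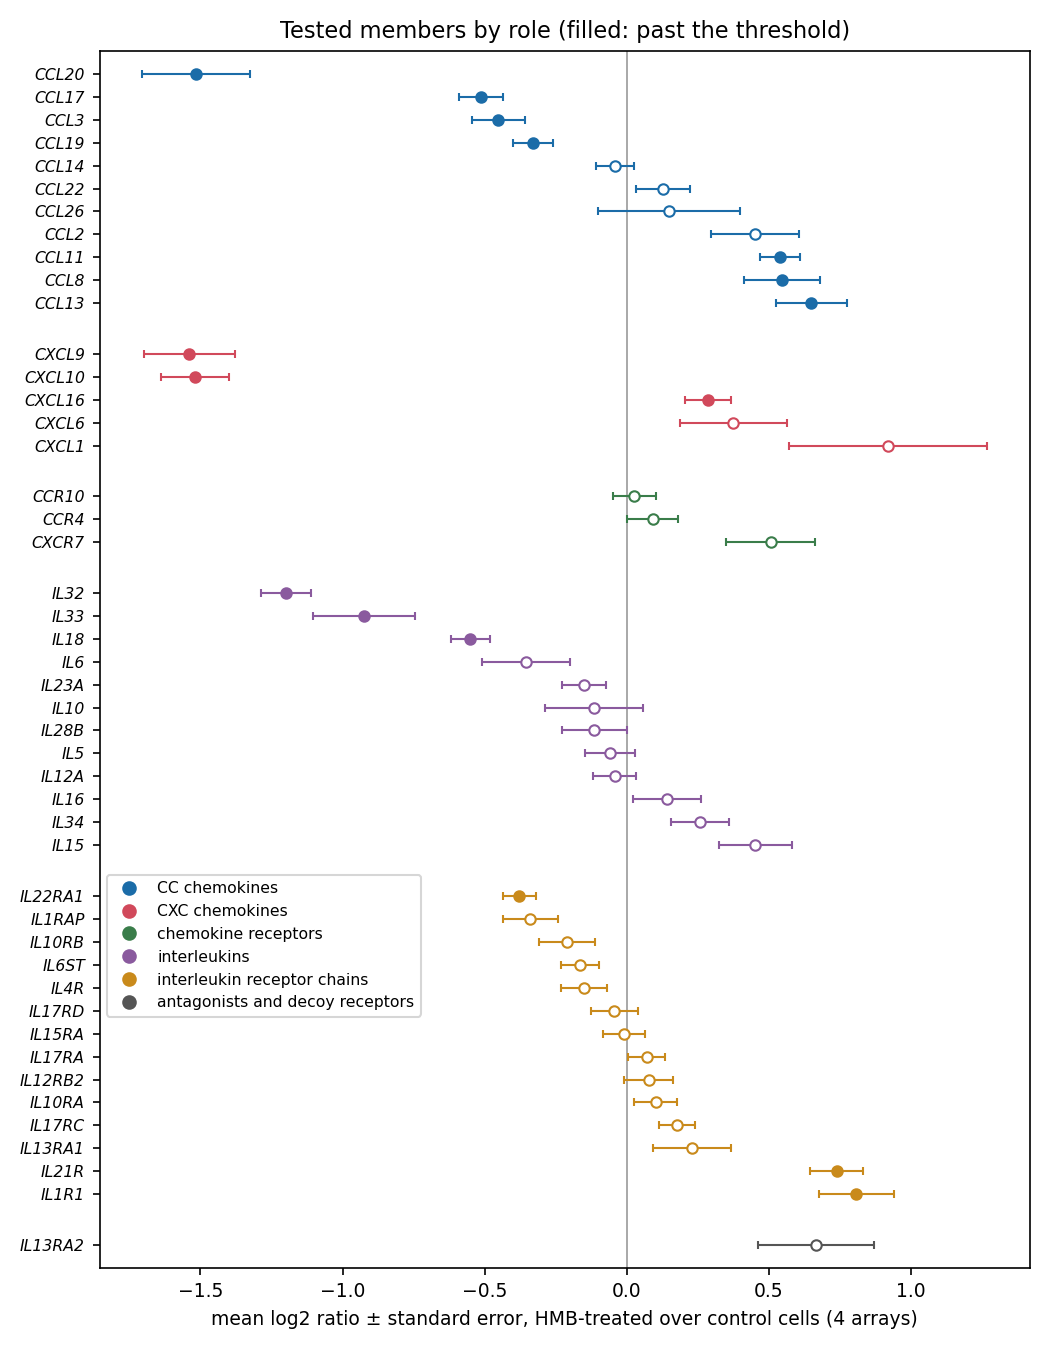
Mean log2 ratio ± standard error (HMB-treated over control cells, 4 arrays) of the 46 tested members, grouped by role and ordered by mean, with filled points for members past the threshold. Means ran from -1.54 for *CXCL9* to 0.92 for *CXCL1*. The latter was not called, and its mean was raised by array 4 (2.34).

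On every array the ratios of tested members had a larger SD than those of all tested genes. It was 0.60, 0.58, 0.52 and 0.86 on arrays 1 to 4, beside 0.36, 0.34, 0.39 and 0.48. Of the 46 members, 6 were admitted by the control channel alone and 3 by the HMB channel alone, which favours large ratios. *CXCL9* and *CCL20*, both among the former, had the lowest ratios on arrays 1, 2 and 4. The SD without such members was not computed. The medians of the members were -0.07, -0.02, -0.01 and 0.05. All 16 called members had the same sign on all 4 arrays, which the test favours because it uses these same ratios. Of the 30 members not called, 3 were higher on all arrays, 4 were lower on all arrays and 23 had mixed signs.

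**Figure D5:**
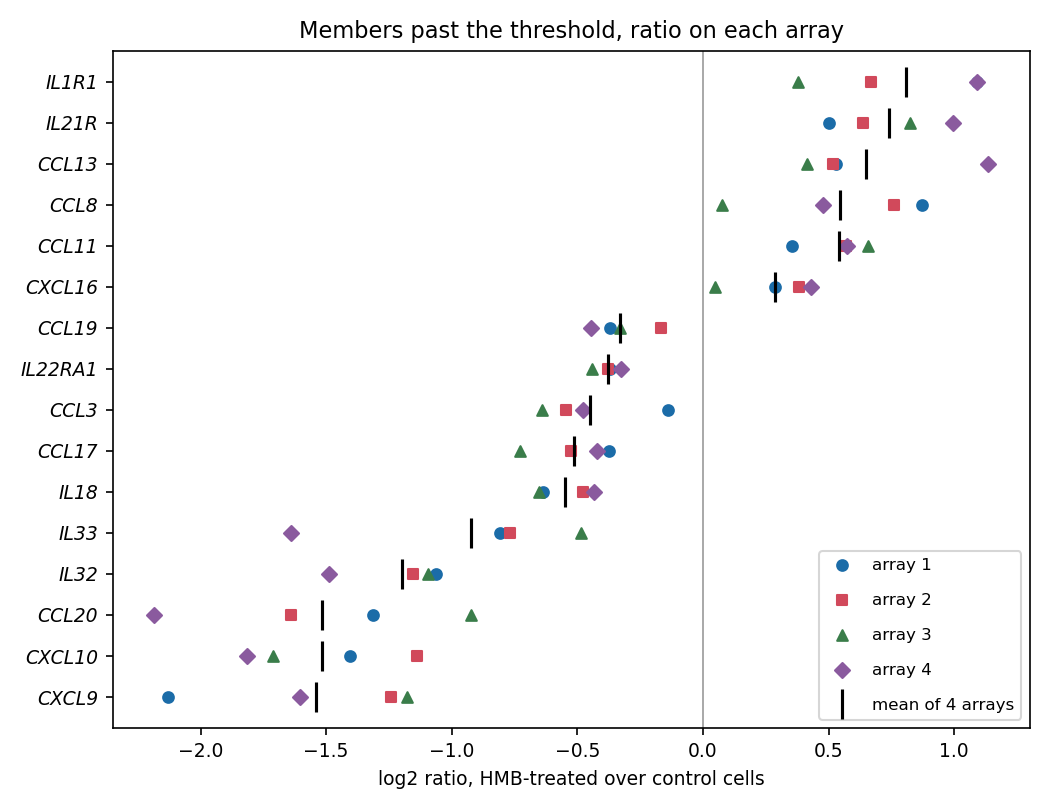
Log2 ratio (HMB-treated over control cells) of the 16 called members on each of the 4 arrays, with a vertical line at the mean. Every point of the 6 higher members lies above 0 and every point of the 10 lower members lies below 0. The calls were made from these same ratios, which favours equal signs.

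Neighbouring genes were also compared by position on EquCab1, which the selection rule did not use. The group chr11:35944372-36091886 holds *CCL4*, *CCL3*, *CCL15*, *CCL14*, *CCL16* and *CCL5*, of which 2 were tested and 1 was lower. On the same chromosome, the group with *CCL13*, *CCL8*, *CCL11* and *CCL2* had 3 higher genes of 4 tested. Of all tested genes 10.9% were higher and 11.6% were lower. The call of *CCL8* was lost without arrays 1, 2 or 4. Without pairing of the channels, and also with no filter, *CCL13* and *CCL8* lost their calls. On chromosome 3, *CXCL9* and *CXCL10* were both lower, whereas *CXCL6* and *CXCL1*, in the group chr3:37422774-37672091 with *IL8*, had positive means and were not called. In the group chr15:3761914-4024176 with *IL18RAP*, *IL18R1* and *IL1RL1*, only *IL1R1* was tested.

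The number of called members depended on the test. The methods' t-test called 2 members, *IL32* and *IL22RA1*, and 768 of all probes, with 16 members and 8435 probes at an unadjusted P under 0.05. Limma had 25 members and 10546 probes at an unadjusted P under 0.05. Without pairing of the channels within arrays, 9 members were called, beside 8.86% of all tested probes. There *CCL13*, *CCL19*, *CCL8*, *CXCL16*, *IL1R1*, *IL21R* and *IL22RA1* lost their calls. With no filter on dim probes *CCL13*, *CCL19*, *CCL20*, *CCL3*, *CCL8*, *CXCL16*, *IL1R1* and *IL33* lost theirs, and *CCR3*, *CCR8*, *CXCR2*, *IL1A* and *IL22*, all too dim for the main test, were called. The median of all probes was 0.02, beside 0.000129 with normexp and loess and 0.15 with normexp and median centring. The share of called probes that were higher was 49.1%, and it was 44.0% and 78.3% in these 2 settings and 34.1% without pairing. No called member changed its sign in any setting.

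A list of 79 other genes of these pathways, from further chemokines and decoy receptors to STAT and SOCS genes, was read in the same way. It had 55 genes with a named probe, of which 34 were tested, 7 were higher and 1 was lower, and the median ratio was 0.08. The 8 called genes were 23.5% of the tested ones, beside 22.4% of all tested genes. Of the called genes, *STAT4* and *TAB1* (higher) were admitted by the HMB channel alone and *CSF2RB* (lower) by the control channel alone. For these the filter favoured the direction. With both channels required on every array 5 pathway genes were called, 5 higher and 0 lower, beside 22.1% of all probes then tested. *STAT4*, which transmits interleukin 12 signals, had ratios of 1.84, 1.69, 0.95 and 1.25. All arrays were high, and the control channel was well above background on none of them. The mean was 1.43 ± 0.41 (SD, n = 4; adjusted P = 0.0031), at least 1.68-fold higher by the processed signals, while normexp with loess gave 0.38. *TAB1*, an activator of the kinase MAP3K7 below the interleukin 1 receptor, had a mean of 0.60 (adjusted P = 0.0312), with 1 array well above background in control cells. Normexp gave 0.25 with loess, still called, and 0.14 with median centring, uncalled.

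*STAT6*, which transmits interleukin 4 signals, had a mean of 0.38 (adjusted P = 0.0213), the cytokine *CNTF* 0.36 (adjusted P = 0.036) and *GNAI3*, a G protein subunit used by chemokine receptors, 0.30 (adjusted P = 0.0274). The other genes that were higher were *STAT5A* and *SOCS4*. *CSF2RB*, the chain shared by the receptors of interleukins 3 and 5, was lower, with a mean of -0.52 (adjusted P = 0.0247). Its HMB channel was well above background on 1 array, and with normexp and loess it was -0.17 and uncalled. The count of 8 called pathway genes was 5, 2, 3 and 5 without arrays 1, 2, 3 and 4. Lost calls were *SOCS4* without any 1 of the arrays (adjusted P = 0.0709, 0.167, 0.184 and 0.0570), *STAT5A* without arrays 1, 2 or 3 (0.0562, 0.104 and 0.0956), *TAB1* without arrays 1, 2 or 4 (0.092, 0.104 and 0.0844) and *CNTF* without arrays 1, 3 or 4 (0.0964, 0.124 and 0.0891). So were *STAT6* without arrays 2 or 3 (0.0657 and 0.0873), *GNAI3* without arrays 2 or 3 (0.130 and 0.123) and *CSF2RB* without arrays 2 or 3 (0.0743 and 0.0615). Calls gained were *DPP4*, a protease that cleaves chemokines, at -1.22 without array 1 (adjusted P = 0.00762) and *OSMR*, the oncostatin M receptor, at 0.66 without array 3 (adjusted P = 0.0173). The count over all probes was 4877, 2573, 2705 and 4957 without each array, beside 6257.

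Markers of cell types were read in the same contrast. With a median of -0.85, all 10 measured myogenic markers were called and lower in HMB-treated cells, beside 11.6% of all tested genes. They ran from *MYH8* at -1.93 and *MYH3* at -1.11, a perinatal and an embryonic myosin, to *ACTC1* at -0.38 and *MYF6* at -0.28, with *DES* at -0.98, *MYF5* at -1.01, *NCAM1* at -0.90, *CKM* at -0.80, *MYOD1* at -0.46 and *MYOG* at -0.42 between them. Adjusted P was 0.0471 for *MYF6* and 0.0443 for *ACTC1* in limma. Array 1 was near 0 for *ACTC1* (-0.01), *CKM* (-0.09) and *MYOD1* (-0.11). Of the 17 markers listed, 7 had no named probe. Alternative settings were not read for these markers. The paper, by its own test, found no differentiation marker significant at this time. *ACTC1* had the brightest probe, which does not rank transcript levels between genes, and the summed signal of the list on arrays 1 to 4 was 261496, 254796, 306982 and 321671 array units in control cells and 224419, 162926, 170276 and 174417 in HMB-treated cells. Their part in the ratios of chemokines and interleukins was not tested.

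Of 9 measured fibroblast markers 8 were tested and 2 were higher, *PDGFRA* at 1.53 and *FAP* at 0.42, with a list median of 0.01. This is 25.0% of the tested ones, beside 22.4% of all tested genes. *COL1A2* had the brightest probe, and the sums were 326619, 306171, 337536 and 429606 in control cells and 393082, 284618, 308363 and 309484 in HMB-treated cells. Of 25 leukocyte markers 8 were tested, *NKG7* was higher at 0.37 (12.5% of the tested ones), and the median was 0.04. *CD14* had the brightest probe. The sums were 7495, 6776, 6852 and 7522 in control cells and 8468, 7103, 7151 and 7143 in HMB-treated cells. Of the leukocyte genes 11 were well above background on no array, among them the T cell genes *CD3E* and *CD4* and the integrin *ITGAM*. None of the 7 endothelial markers was tested, and 6 of them, such as *PECAM1* and *KDR*, were well above background on no array. Their sums were 33.5, 32.3, 53.8 and 55.0 in control cells and 43.4, 42.0, 46.9 and 45.2 in HMB-treated cells. The part of fibroblast and leukocyte markers in the ratios was not tested.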

How the data were processed

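The authors hybridised RNA of HMB-treated (Cy5) and control ESC (Cy3) to 4 two-colour horse arrays and scanned them with Feature Extraction, version 10.10.1.1 per the file headers, while the methods give another version. The deposited log10 ratio of Cy5 over Cy3 had been background-subtracted and dye-normalised (linear and lowess) by the authors' software. The deposited processed signals are intensity values in array units, and the deposited marks of 0 or 1 say whether a spot was well above background in a channel, saturated or irregular. The log10 ratios were multiplied by 3.32 to give log2 ratios. The value table of the series matrix held the same log10 ratios, with a median of 0 on every array and a largest difference of 0, so its scale and direction are those of the scanner files.

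Control spots and spots marked non-uniform or population outlier were left out, and repeated spots were averaged for each probe. A test required at least 3 values and the background mark of 1 channel on every array, which 27383 of 43603 probes met. Ratios were tested against 0 with limma 3.58.1 (R 4.3.3 with version 1.17.8 of data.table, intercept only, eBayes, two-sided), adjusted after Benjamini and Hochberg over all tested probes. Tables and figures used Python 3.11.15, pandas 2.3.3, numpy 2.4.6 and matplotlib 3.10.9. The scripts were tested on simulated data. The number of arrays limits the precision. All arrays lie on 1 slide, so slide was not a batch.

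Bounds are given where a channel was well above background on no array, and for *IL1R2* and the brightest *CCL20* probe, with 1 such array. They used each channel's log2 processed signals after loess and Aquantile normalisation. Members and lists were chosen with earlier results of these data known, and 1 untested member is counted but not reported here by name. Values on every array are given for called members and for *IL6*, *CCL2*, *CXCL1*, *IL15*, *IL4R* and *IL6ST*, and pathway genes by the 5 largest rises and falls. Gene names are those of the array design, and RefSeq accessions matched 33 member genes (116 probes) to current names in a table of another build, used for names alone. Sequences and EquCab1 positions come from the deposited files. Probes of a gene sharing 20 bases or more were counted as 1 site, and genes within 1 Mb as neighbours. Alternatives were normexp (offset 50) with loess or with median centring, the methods' t-test, an intensity trend with a robust prior, channels without pairing, no filter, a stricter filter on both channels, marked spots kept, the mean of a gene's probes, the series matrix, and leaving out each array. The methods' t-test was an ordinary one-sample test of the same ratios. The text of the methods gives only the software's default, and a Student test is named in the authors' description of data processing.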

Additional observations from a re-analysis of the deposited data

Results flagged for a closer look

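Among the 46 tested members, the gap between the most distant array and its nearest neighbour as a share of the range, exceeded Dixon's critical value for 4 values in 2 genes, and chance alone gives this in about 1 of 20 groups of 4. *CCL13* on array 4 had a ratio of 1.13, above 0.53, 0.52 and 0.41 on the other arrays. *IL23A* on array 4 had a ratio of -0.38, below -0.08, -0.06 and -0.09 on the others, and its mean of -0.15 was not called.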

How the results depend on the processing

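Of 288 comparisons of named members with 14 alternative settings, 229 kept direction and side of the threshold, 52 lost and 6 gained a call, and *IL4R* turned to 0.23 with median centring after normexp. Of 81 such comparisons of named pathway genes, 52 were kept and 29 lost the call. The counts of called members, pathway genes and probes were 16, 8 and 6257. They were 2, 0 and 768 with the methods' t-test, at 16 members and 8435 probes with an unadjusted P under 0.05. With the channels compared without the pairing within arrays they were 9, 2 and 2425. With no filter 5 pathway genes and 3690 of 43603 probes were called. With the stricter filter 13 of 37 members, 5 pathway genes and 5771 of 26097 probes were called. With 1 array left out, called members ranged from 12 to 17, pathway genes from 2 to 5 and probes from 2573 to 4957, in fits with fewer arrays. The stricter filter left *CCL20*, *CCL3*, *CXCL9*, *IL1R1*, *IL33*, *IL6*, *STAT4*, *TAB1* and *CSF2RB* untested, so it gives no value for them. With normexp and loess, which adds an offset of 50 to every signal, the mean of *CCL20* moved from -1.52 to -0.49 and that of *STAT4* from 1.43 to 0.38. The cause of these shifts was not tested.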

Other observations

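A pair of genes of the same families carried hyphens in the array's names and so were not members. They were looked at after their values had been seen. *IL1R2*, the decoy receptor of interleukin 1, had ratios of 2.54, 1.47, 1.42 and 2.43 and a mean of 1.97 (adjusted P = 0.00335). All arrays were high. The control channel was well above background on 1 array, so the probe was admitted by the HMB channel alone and the filter favoured this direction. By the processed signals it was at least 3.87-fold higher, a bound open to dye bias. *IL13*, the ligand of *IL13RA1* and *IL13RA2*, had ratios of -0.26, -0.77, -0.21 and -0.10 and was not called (adjusted P = 0.0834).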
